A study of Homo sapiens with 4 samples.

Results

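The BCL2 family of apoptosis regulators was described in SK-MEL-28 cells, an established human melanoma cell line, labelled as carrying an empty vector or an inducible MYC gene. Its members were taken by gene symbol as BCL2, BCL2L1, MCL1, BCL2A1, BAX, BAK1, BCL2L11, BID, BAD and PMAIP1, which are 10 of the 25268 symbols in the table. Each had 1 row and averaged 1 FPKM or more (fragments per kilobase per 1000000 fragments) over the libraries, so all 10 were among the 11147 genes compared. There were 4 RNA-seq libraries, 1 per condition. Vector cells carried the empty lentiviral pTRIPZ vector, and MYC-inducible cells carried a MYC gene under a Tet-inducible promoter, both selected with geneticin. Both were grown without doxycycline (Dox) or with Dox for 54 h, so Dox itself was present in 1 library of each kind of cell, and Dox-treated MYC-inducible cells are called the MYC Dox library. MYC itself had 58.3 and 54.8 FPKM in vector cells and 76.5 and 87.1 FPKM in MYC-inducible cells, each without and then with Dox. In MYC-inducible cells this was a log2 change of 0.19 with Dox, short of 1.5-fold. Untreated MYC-inducible cells were already above untreated vector cells by a log2 difference of 0.39. Against Dox-treated vector cells, the MYC Dox library was 1.59-fold higher. Whether reads of the transgene were counted as MYC is not given in the sources used here, and the change with Dox shows little of the induction that the labels name. By RT-PCR, the paper on these cells reported increased MYC RNA after 54 h of Dox. The sources used here do not say whether each kind of cell was 1 clone or a pool. With 1 library per condition no test of the conditions is possible, differences rest on single libraries, and p-values are left out.

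The proteins of this family decide whether the mitochondrial outer membrane is breached. BAX and BAK1, the effectors, form pores through which cytochrome c escapes and activates caspases. BCL2, BCL-XL (from BCL2L1), MCL1 and BFL-1/A1 (from BCL2A1) hold the effectors and their activators in check, and the BH3-only proteins BIM (from BCL2L11), BID, BAD and NOXA (from PMAIP1) engage the pro-survival proteins or the effectors. In the melanocyte lineage, BCL2A1 is known as a transcriptional target of MITF, and MYC is known to lower the threshold for apoptosis in many cell types. Most control of this family acts on proteins, through binding, cleavage, phosphorylation and degradation, and RNA levels do not show it.

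With Dox, MYC-inducible cells held less BCL2A1 and BCL2L1 RNA and more BID RNA than without Dox by at least 1.5-fold, while in vector cells no member differed by that much. MCL1 at 1.31-fold lower and BCL2L11 at 1.49-fold higher came nearest among the other members and did not pass. Changes were calculated as differences of log2(FPKM + 0.1) between libraries, a scale that understates the change of low genes. In MYC-inducible cells, 1 of the 10 members (BID) was at least 1.5-fold higher with Dox, against 5.9% of all genes compared, and 2 (BCL2A1 and BCL2L1) were at least 1.5-fold lower, against 8.85%. In vector cells, 0 members were past 1.5-fold in either direction, and of all genes 0.709% were higher and 0.44% lower. The members' median log2 change was -0.06 in MYC-inducible cells and 0.07 in vector cells, beside -0.03 and 0.01 over all genes compared. In MYC-inducible cells 5 members had a higher value and 5 a lower one, while 46.8% of all genes compared were higher and 53.1% lower. Of the 4 anti-apoptotic members, 2 passed 1.5-fold lower and 0 higher, with a median log2 change of -0.49. Of the 4 BH3-only members, 1 passed 1.5-fold higher and 0 lower, with a median of 0.33, and of the 2 effectors 0 passed. With 2 to 4 genes in each role, no difference between the roles was tested. In bulk RNA, a change in every cell and a change in the share of cells that express a gene cannot be told apart.

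**Figure D1:**
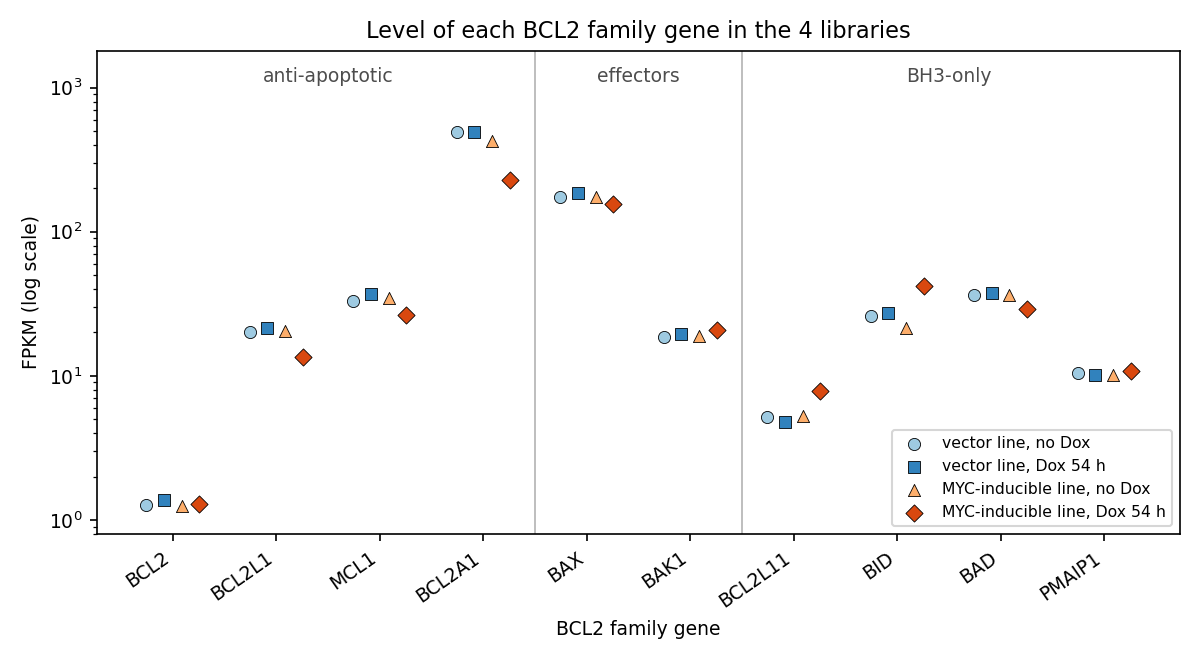
FPKM of the 10 members in the 4 libraries on a log axis, grouped as anti-apoptotic, effector and BH3-only, with 1 point per library. BCL2A1 and BAX stand above the other members, BCL2 lies lowest, and the library of Dox-treated MYC-inducible cells departs most from the other 3 at BCL2A1, BCL2L1, BCL2L11 and BID.

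The scale of the differences between libraries can be read from all genes together. Over all genes compared, the robust SD of the log2 difference was 0.107 for Dox in vector cells, 0.106 between the untreated lines and 0.360 for Dox in MYC-inducible cells. The approximate depth was 39400000 fragments in untreated vector cells, 35400000 with Dox, 42600000 in untreated MYC-inducible cells and 39700000 with Dox. From these depths and annotated transcript lengths, each member rested on approximately 333 to 15200 fragments per library. The counting errors given below follow from those fragments and leave out differences between cultures.

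BCL2A1, a pro-survival protein that binds BIM, BID and NOXA, was the most abundant member and the one that differed most among the anti-apoptotic genes. It had 495 FPKM in untreated vector cells, 495 FPKM in Dox-treated vector cells, 428 FPKM in untreated MYC-inducible cells and 229.7 FPKM in Dox-treated MYC-inducible cells. The MYC Dox library was the lowest and lay 1.86-fold below the nearest of the others, which spanned 1.16-fold among themselves. The log2 change with Dox was -0.90 in MYC-inducible cells, with a counting error of about 0.0210, and -0.00 in vector cells, with a counting error of about 0.0170. By mean level BCL2A1 ranked 260 among the 11147 genes, and its change ranked 353 from the lowest. Untreated MYC-inducible cells were already below untreated vector cells by a log2 difference of -0.21, so the choice of reference mattered, and against Dox-treated vector cells the MYC Dox library was 2.15-fold lower. The gene lies on chromosome 15 of GRCh37 from 80253234 to 80263538, on the minus strand. Because it is an MITF target in this lineage, the bases before its annotated start are shown, at chr15:79971197-79971446 on the minus strand of GRCh38.p14 from RefSeq. The capitals mark CATGTG, a form of the E-box that MITF and its relatives can bind, 25 bases before the start.
BCL2A1: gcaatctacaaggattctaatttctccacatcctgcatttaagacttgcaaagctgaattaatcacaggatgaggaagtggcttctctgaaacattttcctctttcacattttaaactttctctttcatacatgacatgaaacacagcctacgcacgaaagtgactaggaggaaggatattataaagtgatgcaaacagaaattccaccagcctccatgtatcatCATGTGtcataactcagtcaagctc
CATGTG was searched after the values were seen, on both strands of windows from 250 bases before to 50 bases after each start, and it reads CACATG on the other strand. It occurred in 11.1% of 35116 such windows in RefSeq and in 13.3% of the members' 15 windows, so its presence does not set the members apart. A match in letters shows neither binding nor use of the site.

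Melanocyte genes were lower together with BCL2A1. MITF itself, the lineage transcription factor, had 82.6 FPKM and 85.6 FPKM in vector cells without and with Dox, and 89.96 FPKM and 67.2 FPKM in MYC-inducible cells without and with Dox, a log2 change of -0.42. Of 6 melanocyte markers (PMEL, MLANA, TYR, DCT, SOX10 and MITF), all were detected in all 4 libraries, with 61.9 FPKM or more each. In MYC-inducible cells all 6 were lower with Dox, beside 53.1% of all genes compared, and their median log2 change was -0.56. Of them 3 (PMEL, MLANA and TYR) were lower by at least 1.5-fold, against 8.85% of all genes. Against Dox-treated vector cells 5 of the 6 were lower, beside 5655 of the 11147 genes compared. Of them 2 (PMEL and MLANA) were lower by at least 1.5-fold, against 8.62% of all genes. TYR was 1.46-fold lower and DCT had a log2 difference of 0.07. PMEL, the fibrillar protein of melanosomes, went from 6178 to 3394 FPKM, and the log2 changes of MLANA and TYR were -0.74 and -0.70. In vector cells 4 of the 6 were lower, beside 45.6% of all genes compared, and the median was -0.05. DCT had the largest of these changes, -0.29, beside -0.43 in MYC-inducible cells. The part of these genes in the difference of BCL2A1 was not tested.

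BCL2L1, which encodes BCL-XL, had 20.1 FPKM in untreated vector cells, 21.5 FPKM in Dox-treated vector cells, 20.4 FPKM in untreated MYC-inducible cells and 13.5 FPKM in Dox-treated MYC-inducible cells. The 3 other libraries lay within 1.07-fold of each other, and the MYC Dox library was below all of them. The log2 change with Dox was -0.59 in MYC-inducible cells, with a counting error of about 0.0494, and 0.10 in vector cells, with a counting error of about 0.0456. The first of these lay just past 1.5-fold, within its counting error, and fell short of it with median ratio scaling, upper quartile scaling or a pseudocount of 1. BCL2L1 gives a long pro-survival and a short pro-apoptotic isoform by choice of splice site, and a value per gene does not separate them. It lies on chromosome 20 of GRCh37 from 30252255 to 30311792 on the minus strand, where the antisense gene ABALON overlaps its exons, and the use of strand in the deposited values is not given in the sources used here.

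MCL1, a short-lived pro-survival protein that NOXA antagonises, had 33.3 FPKM and 37.2 FPKM in vector cells without and with Dox, and 34.5 FPKM and 26.4 FPKM in MYC-inducible cells without and with Dox. Again the MYC Dox library was the lowest, here 1.31-fold below the untreated library of the same cells and thus inside the threshold. The log2 change was -0.38 in MYC-inducible cells, with a counting error of about 0.0294, and 0.16 in vector cells, with a counting error of about 0.0283. The value in vector cells was the largest of the 10 members there and pointed the other way. MCL1 lies on chromosome 1 of GRCh37 from 150533371 to 150552214 on the minus strand, where exons of ADAMTSL4 on the other strand and of ADAMTSL4-AS1 on the same strand overlap it, and its long and short isoforms are not separated either.

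BCL2, the founding member of the family, was the lowest of the 10 in every library. It had 1.27 FPKM and 1.37 FPKM in vector cells without and with Dox and 1.25 FPKM and 1.29 FPKM in MYC-inducible cells, and it was the 1 member for which the MYC Dox library lay inside the range of the others. The log2 changes of 0.05 in MYC-inducible cells and 0.10 in vector cells were below their approximate counting errors of 0.108 and 0.111, so no difference was detectable at this depth. BCL2 lies on chromosome 18 of GRCh37 from 60790579 to 60987361 on the minus strand. On this length-scaled measure, BCL2A1 RNA was 391 times as abundant as BCL2 RNA in untreated vector cells and 177 times in Dox-treated MYC-inducible cells.

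The effectors differed little. BAX had 174 FPKM in untreated vector cells, 184 FPKM in Dox-treated vector cells, 175 FPKM in untreated MYC-inducible cells and 155 FPKM in Dox-treated MYC-inducible cells, with log2 changes of -0.18 in MYC-inducible cells and 0.08 in vector cells. BAK1 had 18.5 FPKM and 19.5 FPKM in vector cells without and with Dox and 19.0 FPKM and 20.8 FPKM in MYC-inducible cells, with log2 changes of 0.13 and 0.08 in MYC-inducible and vector cells. The MYC Dox library was thus the lowest for BAX and the highest for BAK1, by 1.13-fold and 1.07-fold beyond the nearest of the others, and neither reached 1.5-fold. BAK1 lies on chromosome 6 of GRCh37 from 33540324 to 33548070 on the minus strand, exons of GGNBP1 overlap it on the other strand, and it has the processed pseudogenes BAK1P1 and BAK1P2, with which reads could be shared. BAX held 88.1% to 90.4% of the effector RNA in the 4 libraries. It lies on chromosome 19 of GRCh37 from 49458072 to 49465055 on the plus strand. Its promoter is shown for its density of CACGTG, the canonical E-box that MYC and its partner MAX can bind, at chr19:48954625-48954874 on the plus strand of GRCh38.p14 from RefSeq. The capitals mark 4 copies, which begin 138, 93, 45 and 14 bases before the start.
BAX: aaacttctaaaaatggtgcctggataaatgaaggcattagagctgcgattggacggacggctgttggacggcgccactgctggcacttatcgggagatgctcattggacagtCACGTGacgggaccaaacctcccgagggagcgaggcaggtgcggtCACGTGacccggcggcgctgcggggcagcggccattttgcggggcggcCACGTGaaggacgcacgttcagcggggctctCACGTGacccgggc
CACGTG reads the same on both strands and occurred in 7.26% of the 35116 RefSeq windows, and 4 or more copies occurred in 5 of them, or 0.0142%. The cut-off of 4 is the count of BAX itself, whose window is 1 of the 5. In these libraries the gene with this promoter was not past 1.5-fold in either line. Of the 9 members found in the RefSeq table of windows, BAX and BID held CACGTG, BCL2A1 and BID held CATGTG, and BCL2, BCL2L1, BCL2L11, BAK1, BAD and PMAIP1 held neither. By window, CACGTG was in 3 of the members' 15, or 20%, and the BID windows among them overlap and share a site. No share per gene over all genes was calculated. No window was read for MCL1.

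BID, the BH3-only protein that caspase-8 cleaves to carry death receptor signals to mitochondria, was the member with the largest rise. It had 26.2 FPKM in untreated vector cells, 27.2 FPKM in Dox-treated vector cells, 21.6 FPKM in untreated MYC-inducible cells and 41.9 FPKM in Dox-treated MYC-inducible cells. The MYC Dox library was the highest, and the untreated library of the same line was the lowest. The log2 change was 0.95 in MYC-inducible cells, with a counting error of about 0.0402, and 0.05 in vector cells, with a counting error of about 0.0438. This was 1.94-fold, and the change ranked 136 from the highest of 11147 genes. Part of it rested on the reference, because untreated MYC-inducible cells were below untreated vector cells by a log2 difference of -0.28, and against Dox-treated vector cells the MYC Dox library was 1.54-fold higher. BID lies on chromosome 22 of GRCh37 from 18216904 to 18257536 on the minus strand. A CACGTG in its promoter, in capitals, is shown with its surroundings at chr22:17774072-17774101 on the minus strand of GRCh38.p14 from RefSeq.
BID: ttgtgtcctctcCACGTGgcctggggattc
The copy begins 106 bases before 1 annotated start of BID and 47 bases before another, whose windows overlap. A CATGTG lay 163 bases before a further BID start.

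BCL2L11, which encodes BIM and can bind all pro-survival members, had 5.20 FPKM in untreated vector cells, 4.78 FPKM in Dox-treated vector cells, 5.22 FPKM in untreated MYC-inducible cells and 7.84 FPKM in Dox-treated MYC-inducible cells. The 3 other libraries spanned 1.09-fold, and the MYC Dox library lay above them. The log2 change was 0.58 in MYC-inducible cells, with a counting error of about 0.0561, and -0.12 in vector cells, with a counting error of about 0.0664. At 1.49-fold it fell just short of the threshold, which the counting error spans, and it passed it with median ratio or upper quartile scaling. Against Dox-treated vector cells the MYC Dox library was 1.63-fold higher. BCL2L1 and BCL2L11 therefore stood on either side of 1.5-fold with nearly equal sizes of change. BCL2L11 lies on chromosome 2 of GRCh37 from 111876955 to 111926021 on the plus strand, where MIR4435-2HG overlaps its exons on the other strand.

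The other BH3-only members stayed closer to their untreated levels. BAD, which binds BCL-XL and BCL2 when it is not phosphorylated, had 36.3 FPKM and 37.6 FPKM in vector cells without and with Dox and 36.2 FPKM and 29.0 FPKM in MYC-inducible cells without and with Dox. Its log2 change of -0.32 in MYC-inducible cells, beside 0.05 in vector cells, made it the 1 of the 4 BH3-only members with a lower value in the MYC Dox library. BAD lies on chromosome 11 of GRCh37 from 64037302 to 64052176 on the minus strand, where exons of GPR137 overlap it on the other strand. PMAIP1, which encodes NOXA and lies on chromosome 18 of GRCh37 from 57567228 to 57571537 on the plus strand, had 10.5 FPKM and 10.1 FPKM in vector cells and 10.2 FPKM and 10.8 FPKM in MYC-inducible cells, each without and then with Dox. Its log2 changes of 0.08 and -0.05 in MYC-inducible and vector cells were below the robust SD of 0.107 over all genes in vector cells, and the approximate counting error in MYC-inducible cells was 0.0714.

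**Figure D2:**
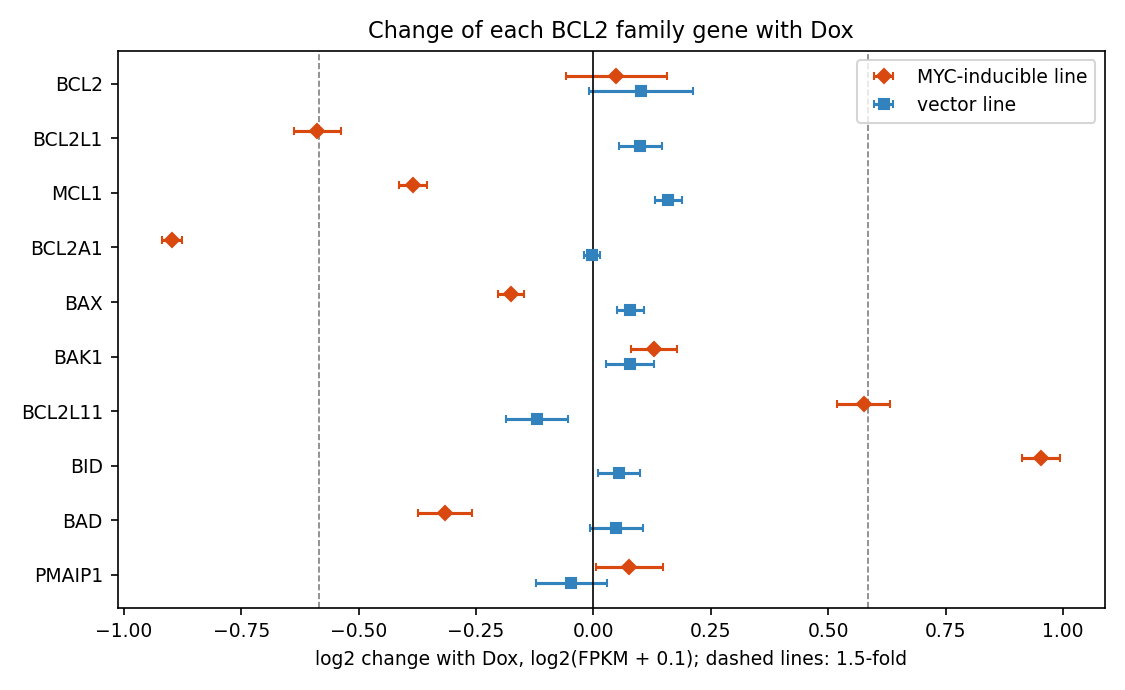
Change of each member with Dox, as log2(FPKM + 0.1) with Dox minus without Dox, in MYC-inducible and vector cells, with bars for the approximate counting error and dashed lines at 1.5-fold. Each point is 1 pair of libraries, and BID at 0.95 and BCL2A1 at -0.90 lie farthest from 0 in MYC-inducible cells, while all points of vector cells lie between -0.12 and 0.16.

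For 9 of the 10 members, the MYC Dox library lay outside the range of the other 3. It was the highest library for 4 members, against 40.2% of all genes compared, and the lowest for 5, against 42.9%, so that position alone was common in these data. When Dox-treated MYC-inducible cells were set against Dox-treated vector cells, 2 members (BID and BCL2L11) were at least 1.5-fold higher, against 6.5% of all genes, and 2 (BCL2A1 and BCL2L1) were at least 1.5-fold lower, against 8.62%. This comparison shares its libraries with the comparisons of Dox within each kind of cell and is not separate evidence. Between the untreated lines 0 members were past 1.5-fold, while 0.592% of all genes were higher in MYC-inducible cells and 0.287% lower. There the members' log2 differences ran from -0.28 (BID) to 0.05 (MCL1).

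The levels of the members can be added on the FPKM scale, which is per length, to describe the RNA of these 10 genes by role. The sums leave out other family genes, such as BBC3 and BCL2L2, at 7.65 and 7.81 FPKM in the MYC Dox library. Of 9 such genes above the filter, 3 were higher and 6 lower with Dox in MYC-inducible cells. The 4 anti-apoptotic genes summed to 550.1 FPKM in untreated vector cells, 554.7 FPKM in Dox-treated vector cells, 484 FPKM in untreated MYC-inducible cells and 271 FPKM in Dox-treated MYC-inducible cells. BCL2A1 alone made up 90.1%, 89.2%, 88.4% and 84.8% of these sums, so the sum largely followed this gene. Without BCL2A1, the remaining 3 summed to 54.7, 60.1, 56.1 and 41.2 FPKM in the same order, again with the MYC Dox library the lowest. The effectors summed to 193, 204, 194 and 176 FPKM, and the BH3-only genes to 78.1, 79.6, 73.2 and 89.6 FPKM. The log2 change with Dox in MYC-inducible cells was -0.84 for the anti-apoptotic sum, -0.14 for the effector sum and 0.29 for the BH3-only sum, beside 0.01, 0.08 and 0.03 in vector cells.

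**Figure D3:**
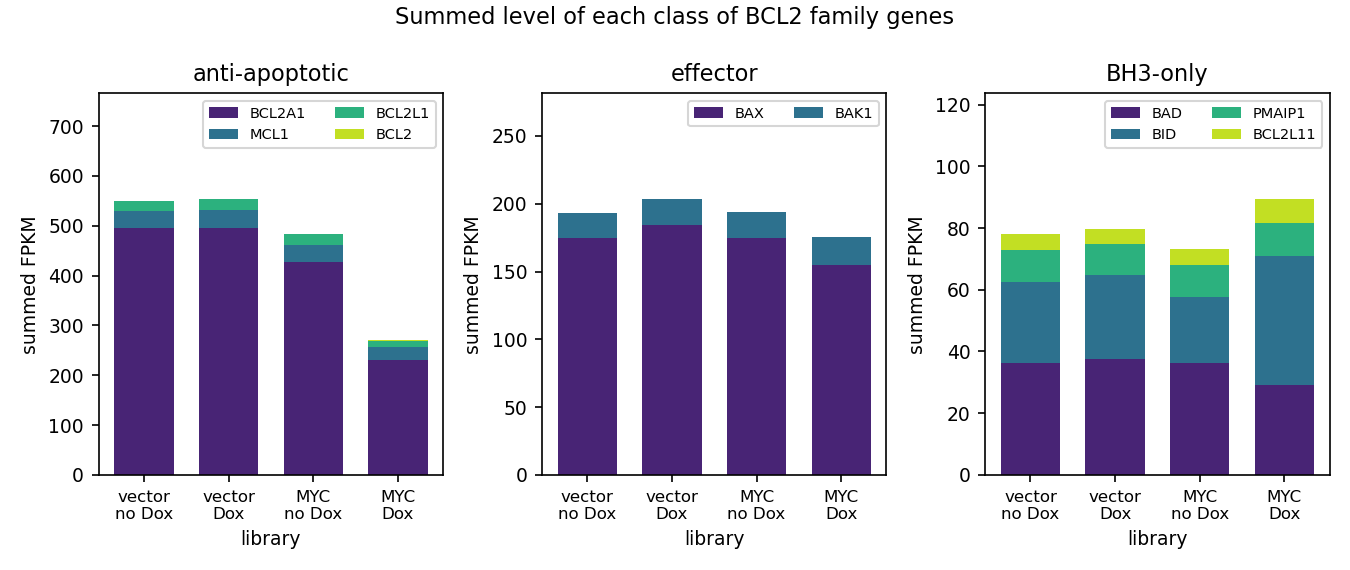
Summed FPKM of the anti-apoptotic, effector and BH3-only members in each of the 4 libraries, with bars from 0 and each member drawn as a part of its bar. The anti-apoptotic bar of Dox-treated MYC-inducible cells reaches 271 FPKM, against 484 to 554.7 FPKM in the other 3 libraries, and BCL2A1 makes up most of it in every library.

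The ratio of the anti-apoptotic sum to the BH3-only sum was 7.04 in untreated vector cells, 6.96 in Dox-treated vector cells, 6.61 in untreated MYC-inducible cells and 3.02 in Dox-treated MYC-inducible cells. With BCL2A1 left out of the sum, the ratio was 0.699, 0.755, 0.766 and 0.460 in the same order. The ratio of the anti-apoptotic to the effector sum was 2.85, 2.72, 2.50 and 1.54. In all of these ratios the MYC Dox library was the lowest, and the other 3 lay close together. Of the 16 ratios of 1 anti-apoptotic to 1 BH3-only member, 15 were lowest in the MYC Dox library and 1, BCL2 over BAD, was not. These ratios share members, and each follows from the levels given above, so they are not separate observations. BCL2 over BAD was 0.0349, 0.0364, 0.0345 and 0.0446, highest in the MYC Dox library, and MCL1 over BAD was 0.908 there, close to the 0.917 of untreated vector cells. MCL1 over PMAIP1, a pair of direct binding partners, was 3.18, 3.68, 3.38 and 2.45. Within the BH3-only sum, the share of BID was 33.5%, 34.1%, 29.5% and 46.8%. These are ratios of RNA and not of protein.

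The order of the 10 members by level was the same in 3 libraries, vector cells without and with Dox and untreated MYC-inducible cells. From the highest it ran BCL2A1, BAX, BAD, MCL1, BID, BCL2L1, BAK1, PMAIP1, BCL2L11 and BCL2. In Dox-treated MYC-inducible cells, 5 of the 10 members kept their place. BID stood ahead of BAD and MCL1 there, and BAK1 stood ahead of BCL2L1. Some neighbours in this order lay close, such as BAD and MCL1 in Dox-treated vector cells at 37.6 and 37.2 FPKM and BCL2L1 and BAK1 in untreated MYC-inducible cells at 20.4 and 19.0 FPKM, and with 1 library each their order has no replicate check.

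The other genes of the apoptosis pathway were described from 6 lists with 57 genes, of which 45 averaged 1 FPKM or more. In MYC-inducible cells 1 of the 45 (ATF4) was at least 1.5-fold higher with Dox and 2 (BNIP3L and TP73) were at least 1.5-fold lower, against 5.9% higher and 8.85% lower of all genes compared. The median log2 change was -0.18, beside -0.03 over all genes. In vector cells 1 (DDIT3) was higher, against 0.709% of all genes, and 0 were lower, against 0.44%. Of 9 other BCL2 family genes above the filter, 3 were higher and 6 lower in MYC-inducible cells. BNIP3L, which marks mitochondria for mitophagy, fell from 26.2 to 12.9 FPKM in that line and had 26.4 and 24.5 FPKM in vector cells without and with Dox. BCL2L2, the pro-survival protein BCL-W, had 10.3 FPKM in each of 3 libraries and 7.81 FPKM in the MYC Dox library, a log2 change of -0.40. BBC3, which encodes the p53-induced BH3-only protein PUMA, had 8.64, 8.93, 8.67 and 7.65 FPKM in vector cells without and with Dox and MYC-inducible cells without and with Dox. BCL2L10 and BCL2L14 were listed at 0 in all 4 libraries.

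Among 12 genes above the filter that are known to act on the transcription or turnover of members, ATF4, a stress-responsive transcription factor, had 209 and 224 FPKM in vector cells and rose from 197 to 303 FPKM in MYC-inducible cells, a log2 change of 0.62. DDIT3, which encodes the stress-induced transcription factor CHOP, had 31.7 FPKM and 59.0 FPKM in vector cells without and with Dox and 32.3 FPKM and 30.3 FPKM in MYC-inducible cells. DDIT3 was thus highest in Dox-treated vector cells. TP73, a relative of p53, fell from 5.98 to 3.44 FPKM in MYC-inducible cells and had 5.47 and 5.63 FPKM in vector cells.

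The lists of caspases, death receptors, IAP proteins and outer membrane channels held 0 genes past 1.5-fold with Dox in either kind of cell. Of the genes named here from these lists, all were chosen after their values were seen. Of 8 caspase and apoptosome genes, 6 were lower and 2 higher in MYC-inducible cells, with a median log2 change of -0.23, and 6 were lower and 2 higher in vector cells too, with a median of -0.06. CYCS, the gene of the cytochrome c that BAX and BAK1 release, had 78.6 and 72.5 FPKM in vector cells and 77.0 and 109.8 FPKM in MYC-inducible cells without and with Dox, while CASP9, the caspase that the apoptosome activates, had 5.80, 6.86, 5.63 and 4.14 FPKM in the same order. In MYC-inducible cells the 6 death receptor genes above the filter were lower in 5 cases, with a median of -0.38, and in vector cells in 2 cases, with a median of 0.04. The IAP genes and their antagonists were higher in 4 of 7 in MYC-inducible cells, with a median of 0.03, and in 7 of 7 in vector cells, with a median of 0.06. Those 7 values in vector cells were small, from 0.01 to 0.12. Over all genes compared, 46.8% were higher and 53.1% lower in MYC-inducible cells, and 54.2% higher and 45.6% lower in vector cells. VDAC1, VDAC2 and VDAC3, the channels of the outer membrane, had log2 changes of 0.44, 0.38 and 0.24 in MYC-inducible cells, with a median of -0.03 in vector cells. Against Dox-treated vector cells, CYCS was 1.51-fold higher in the MYC Dox library and CASP9 1.64-fold lower. The death receptor pathway genes TNFRSF1A and TRADD were 1.57-fold and 1.56-fold lower there, and the IAP gene BIRC2 1.52-fold lower. No other gene of these lists passed in that comparison, in which 6.5% of all genes were at least 1.5-fold higher and 8.62% lower.

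**Figure D4:**
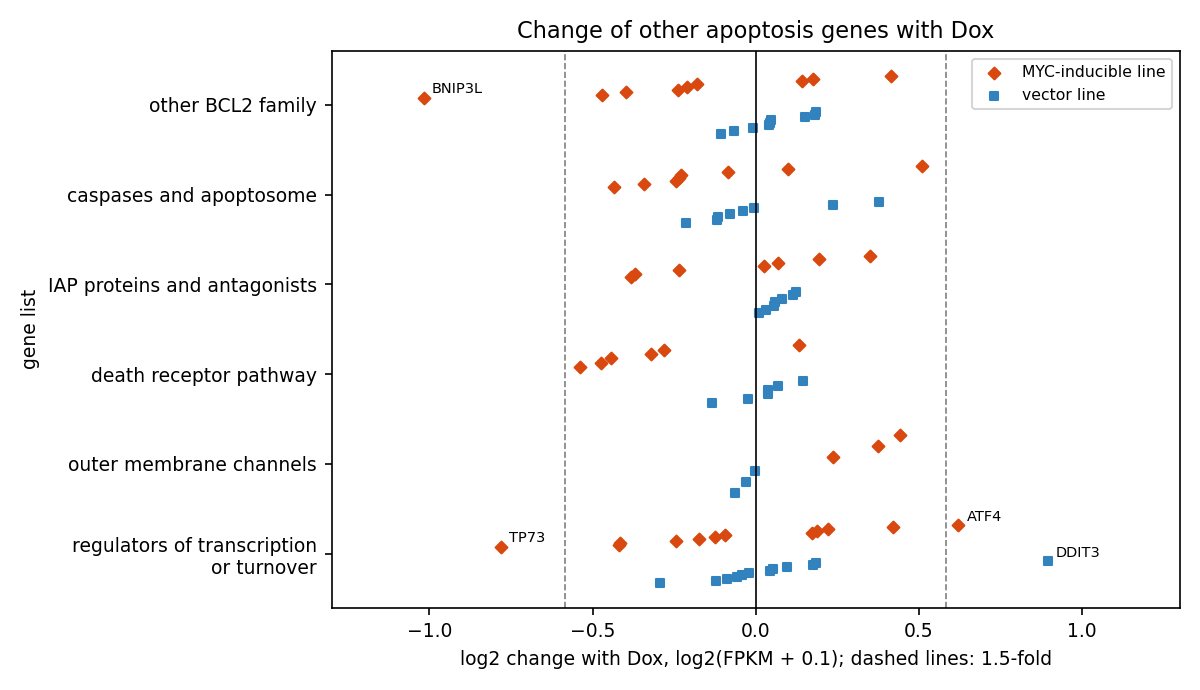
Change with Dox of the 45 other apoptosis genes that averaged 1 FPKM or more, as log2(FPKM + 0.1) with Dox minus without Dox, by list, in MYC-inducible and vector cells, with dashed lines at 1.5-fold. BNIP3L, TP73 and ATF4 lie past the lines in MYC-inducible cells and DDIT3 in vector cells.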

How the data were processed

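Gene expression was analysed in 4 RNA-seq libraries of SK-MEL-28 cells, 1 each of vector and MYC-inducible cells, untreated or after 54 h with Dox, grouped by their labels. For each gene symbol the authors deposited FPKM values, and per the labels' processing notes TopHat2 2.0.14 and Cufflinks were used with hg19. The annotation and the use of strand are not given in the sources used here. FPKM values already divide by library size and transcript length, so a large gain in a few genes lowers the others.

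Of 27032 rows, 1 without a gene name, at 0 or without a value, was dropped, and rows were added up for 609 repeated symbols. No count model was fitted and no test was made, because FPKM values are not counts and each condition has 1 library. Changes were differences of log2(FPKM + 0.1) in 11147 genes that averaged 1 FPKM or more, called at 1.5-fold. Depth was estimated from genes under 0.05 FPKM with 1 annotated transcript of at least 1500 bases, 64 to 77 genes per library, and counting errors used the canonical transcript length of GENCODE release 44 on GRCh37. All 10 members, BBC3, BCL2L2, MYC and the pathway genes past 1.5-fold in either line were named by rule. The members, lists and rule were chosen with earlier results of these data known. The calculations were tested on simulated data. Alternatives tried were a pseudocount of 1 or 0.01, no filter on low values, a minimum mean of 5 FPKM, 3 rescalings (equal sums, median ratio, upper quartile), a 2-fold threshold and Dox-treated vector cells as reference. The anti-apoptotic sum without BCL2A1 was added after the data were seen. BH3 sequences and splicing were not analysed here. Calculations used numpy 2.4.6 and pandas 2.3.3 in Python 3.11.15, and plots matplotlib 3.10.9.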

Additional observations from a re-analysis of the deposited data

Results flagged for a closer look

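Some genes had log2 changes with Dox of opposite sign in MYC-inducible and vector cells, so that the difference between the log2 changes of the lines drew attention. With 1 library per condition this difference was not tested. Among the members, the log2 change in MYC-inducible cells minus that in vector cells was -0.69 for BCL2L1, -0.54 for MCL1, -0.25 for BAX and -0.36 for BAD, and it was 0.70 for BCL2L11 and 0.12 for PMAIP1. Only BCL2L1 of these 6 was past 1.5-fold in MYC-inducible cells. Among all 11147 genes compared, 657 had opposite signs and were past 1.5-fold there. BCL2A1 and BID, with the largest changes, are not among them, because the value in vector cells of BCL2A1 was -0.00 and that of BID was 0.05 with the same sign as in MYC-inducible cells. Of the other named genes the difference was -0.23 for BBC3, -0.99 for DDIT3, 0.28 for MYC and -0.82 for TP73. That of DDIT3 came from vector cells, where it went from 31.7 to 59.0 FPKM. Opposite signs were common in these data, since 45.4% of all 11147 genes compared had them. In vector cells the values of BCL2L1, BAX, BAD, PMAIP1, BBC3, MYC and TP73 lay within the robust SD of 0.107 over all genes. Their sign there is therefore uncertain.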

How the results depend on the processing

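No value past 1.5-fold changed direction under the alternatives tried. BCL2 changed sign against Dox-treated vector cells, and the anti-apoptotic sum in vector cells went from 0.01 to -0.01 with rescaling to the same sum or by the upper quartile. Of 106 recalculated summary values 87 stayed near the reported value and 19 moved. Of 110 single-gene values 105 stayed and 5 moved, all 5 against Dox-treated vector cells as reference. There the log2 difference was -0.07 for BCL2, -1.11 for BCL2A1, 0.70 for BCL2L11, 0.62 for BID and -0.49 for MCL1. A log2 value counted as staying if it moved by less than 0.107, the robust SD in vector cells, and a count if within 1.5-fold. Each rescaling multiplied a whole library by 1 factor, and all members passed the filter of 1 FPKM. Many of these values could therefore hardly move, and the counts do not measure robustness. The range over the settings was -0.67 to -0.56 for BCL2L1 and 0.51 to 0.70 for BCL2L11, so both crossed 1.5-fold. The members at least 1.5-fold higher in MYC-inducible cells, 1 as reported, were 2 against Dox-treated vector cells, beside 6.5% of all genes. They were 2 with median ratio scaling and 2 with upper quartile scaling, and 0 were at least 2-fold higher. The members lower, 2 as reported, were 1 with median ratio scaling, 1 with upper quartile scaling and 1 with a pseudocount of 1, and 0 were at least 2-fold lower. For the rescalings, the pseudocount of 1 and the 2-fold threshold, the share of all genes was not calculated. Under those settings these counts, and those of pathway genes below, therefore have no background to be read against. The members' median was -0.18 with a minimum mean of 5 FPKM, which leaves out BCL2. Against Dox-treated vector cells, the log2 difference was -1.03 for the anti-apoptotic sum and 0.17 for the BH3-only sum. Without BCL2A1 the anti-apoptotic sum changed by -0.45 in MYC-inducible cells and 0.14 in vector cells. Of the 45 pathway genes, 0 were higher with rescaling to the same sum. Against Dox-treated vector cells 2 were higher and 7 lower, beside 6.5% and 8.62% of all genes. At 2-fold 0 were higher and 1 lower in MYC-inducible cells, and 0 were higher in vector cells. Apart from the steps that change the samples or genes by construction, the cause was not tested. No paired analysis was possible because there was 1 library per condition. Depth limits BCL2, with approximately 333 to 365 fragments per library.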
